A study of Mus musculus with 11 samples.

Results

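Fatty acid oxidation in liver was followed through 33 genes: the receptor that controls the pathway, the carnitine shuttle, the enzymes of mitochondrial and peroxisomal β-oxidation, the carriers of the electrons, and enzymes of ketone bodies. Every probe set that the platform annotation gives to exactly 1 of these symbols was taken, 53 probe sets in all, and the probe set with the highest mean over 11 samples represents its gene. This gave a value for 32 of the 33 genes, out of 12393 genes measured through probe sets with 1 symbol. Acsl1, an acyl-CoA synthetase, had no such probe set and is not analysed here. All 32 representative probe sets passed the filter on low values, a log2 value above 4 in at least 5 samples, and 3 further probe sets of the genes did not.

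The series compared livers of 6 Gsr-null and 5 wild-type (WT) male mice, 15 to 20 weeks old, of strain C57BL/6J, collected between 2 and 4 in the afternoon. The labels name no treatment. Sample numbers here are the biological replicate numbers in the sample titles. The bracketed names of the Gsr-null livers in those titles carry other numbers, which are not used here. Gsr encodes glutathione reductase, which regenerates reduced glutathione; how the gene was disrupted is not stated in the labels. Values are log2 expression values from Affymetrix arrays, 1 array per mouse, so a difference of 1 is a doubling of signal.

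β-Oxidation shortens fatty acids by removing acetyl-CoA units. Long-chain acyl groups enter mitochondria as carnitine esters, pass through dehydrogenation, hydration, a second dehydrogenation and thiolysis, and give their electrons to the respiratory chain through the electron transfer flavoprotein. Peroxisomes shorten very long and branched chains with their own enzymes. In liver the nuclear receptor PPAR-alpha, encoded by Ppara, drives many of these genes, most of all during fasting, when the acetyl-CoA formed feeds ketone body synthesis.

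Promoter sequences are shown for genes on which the description turns. Of the 33 genes 28 had an entry in the RefSeq promoter table of build GRCm38.p6, which covers 250 bases before to 50 after a gene's start. Hadha and Hadhb, the subunits of the mitochondrial trifunctional protein, are shown because their starts lie 273 bases apart on opposite strands of chromosome 5. Their windows share 228 bases, in capitals, which the other window holds as the reverse complement. Hadha lies at chr5:30154931-30155230 on the minus strand and Hadhb at chr5:30155003-30155302 on the plus strand.
Hadha: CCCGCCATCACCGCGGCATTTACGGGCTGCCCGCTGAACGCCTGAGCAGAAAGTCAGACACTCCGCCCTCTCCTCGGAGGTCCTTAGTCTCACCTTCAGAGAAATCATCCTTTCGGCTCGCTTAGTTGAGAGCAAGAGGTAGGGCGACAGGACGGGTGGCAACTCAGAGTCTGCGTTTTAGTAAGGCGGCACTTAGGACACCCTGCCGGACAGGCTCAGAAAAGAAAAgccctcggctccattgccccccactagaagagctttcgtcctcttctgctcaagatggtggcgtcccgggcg
Hadhb: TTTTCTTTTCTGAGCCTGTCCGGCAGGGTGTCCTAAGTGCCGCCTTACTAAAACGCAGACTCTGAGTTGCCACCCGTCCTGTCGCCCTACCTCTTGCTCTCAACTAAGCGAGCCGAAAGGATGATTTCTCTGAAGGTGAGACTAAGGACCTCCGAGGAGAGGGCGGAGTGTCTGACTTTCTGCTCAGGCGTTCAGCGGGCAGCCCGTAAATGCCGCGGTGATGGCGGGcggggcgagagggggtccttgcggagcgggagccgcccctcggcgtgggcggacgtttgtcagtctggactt

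Acadm, the medium-chain acyl-CoA dehydrogenase, and Cpt1a, the entry enzyme, are shown because their windows hold AGGTCA, the short motif that nuclear receptors such as PPAR-alpha bind. Capitals mark it on either strand, as AGGTCA or TGACCT. Pex11a, a membrane protein of peroxisome division, is shown because it varied widely between livers. Capitals there mark GGGCGG or its reverse complement, a GC box. Acadm lies at chr3:153944594-153944893 on the minus strand, Cpt1a at chr19:3323051-3323350 on the plus strand and Pex11a at chr7:79743082-79743381 on the minus strand.
Acadm: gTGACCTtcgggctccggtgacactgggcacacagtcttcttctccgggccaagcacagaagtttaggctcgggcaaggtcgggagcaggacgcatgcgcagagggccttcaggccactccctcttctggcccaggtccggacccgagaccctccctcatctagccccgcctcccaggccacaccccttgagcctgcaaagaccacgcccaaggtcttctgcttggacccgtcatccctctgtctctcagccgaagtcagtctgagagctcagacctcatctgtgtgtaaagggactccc
Cpt1a: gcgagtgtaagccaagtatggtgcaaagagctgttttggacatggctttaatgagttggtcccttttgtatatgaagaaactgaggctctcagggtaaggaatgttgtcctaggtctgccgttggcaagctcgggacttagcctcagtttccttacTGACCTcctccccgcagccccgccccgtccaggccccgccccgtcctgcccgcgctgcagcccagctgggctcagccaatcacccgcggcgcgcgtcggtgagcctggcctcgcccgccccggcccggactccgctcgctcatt
Pex11a: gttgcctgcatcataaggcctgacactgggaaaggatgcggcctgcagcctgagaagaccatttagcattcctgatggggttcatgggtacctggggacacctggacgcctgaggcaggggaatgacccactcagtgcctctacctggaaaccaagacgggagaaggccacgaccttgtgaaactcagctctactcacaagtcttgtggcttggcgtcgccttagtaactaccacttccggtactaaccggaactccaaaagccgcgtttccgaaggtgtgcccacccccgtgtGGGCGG

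The full PPAR-alpha element, 2 copies of AGGTCA in the same direction with 1 base between them, on either strand, was in 0 of the 27 promoters of measured genes and in 0.0481% of the 27025 genes in the table. AGGTCA alone, which the exact form contains, was in 6 of the 27 (22.2%) and in 18.1% of all genes, so the share stood near the background. GGGCGG was in 22 of the 27 (81.5%) against 38.2% of all genes. The 27 are genes that passed the filter in liver, while the 27025 were not limited to such genes. Whether the share differs from that of other genes measured in liver was not tested. A match is a description of these letters and not a site of binding.

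No gene of the pathway differed between Gsr-null and WT livers past the threshold of an adjusted p under 0.05. Limma called 0 of the 32 genes, against 37 of 9560 tested probe sets (0.387%), of which 0.167% were higher and 0.22% lower in Gsr-null livers. The adjusted p of the 32 lay between 0.445 and 0.999. At an unadjusted p under 0.05 there was 1 gene, Eci2, lower in Gsr-null livers (3.12%), against 8.36% of all tested probe sets in either direction and 5.08% in that direction. The median difference over the 32 genes was -0.11 on the log2 scale, with 23 below 0 (71.9%), against -0.029 over all tested probe sets, of which 56.7% were below 0. In 0 of the 32 were the genotypes free of overlap, against 1.36% of all tested probe sets. The SE of the difference ran from 0.0938 for Phyh to 0.557 for Crat. Changes of moderate size could thus be missed, and larger ones for the most variable genes. Eci2, at a difference of -0.62 with an SE of 0.228, had a limma adjusted p of 0.445. The absence of called genes therefore does not show that the genes were unchanged.

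**Figure D1:**
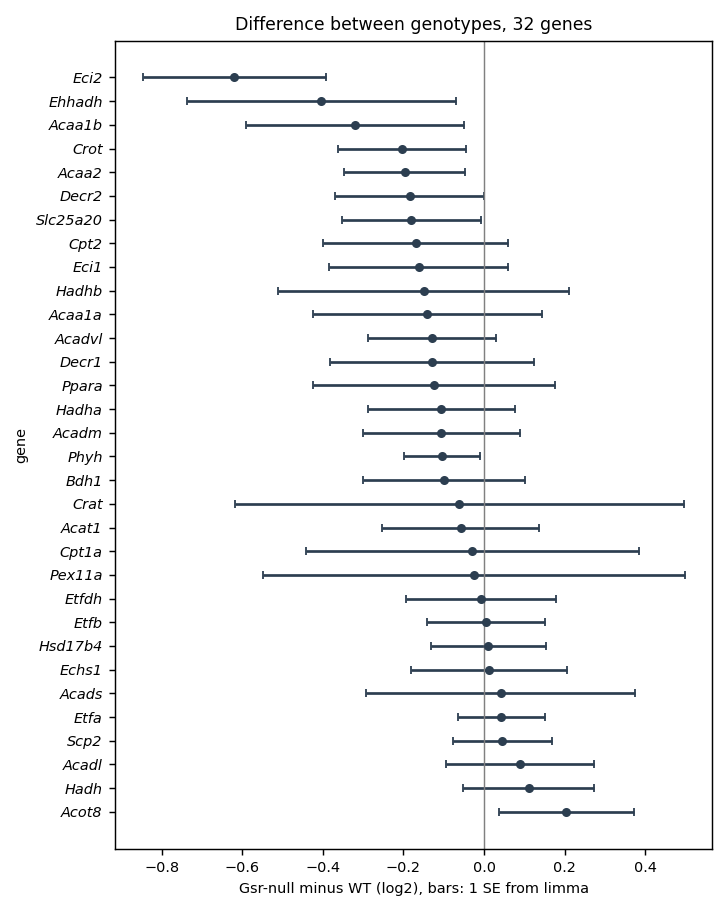
Difference between Gsr-null and WT livers on the log2 scale (horizontal axis) for each of 32 genes (vertical axis), with points for the difference and bars for 1 SE from limma. Eci2, at -0.62, lies farthest from 0, and the differences of the 32 genes run between -0.62 and 0.20.

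In these genes the Gsr-null livers were more uneven than the WT livers, which is described here without a test. The median over genes of the SD was 0.396 in Gsr-null and 0.211 in WT livers, against 0.300 and 0.256 over all tested probe sets. The SD was larger in Gsr-null livers for 23 of the 32 genes (71.9%), against 60.8% of all tested probe sets. Samples 4 and 5 were the highest pair of the 6 Gsr-null livers in 22 of the 32 genes (68.8%), against 18.8% of all tested probe sets, and the lowest pair in 0, against 8.36%. The lowest of all 11 livers was Gsr-null in 29 of the 32 genes (90.6%), against 65.4% of all tested probe sets, and the highest in 18 (56.2%), against 54%. In 18 genes (56.2%) both extremes were Gsr-null, against 31.7%. The count for samples 4 and 5 was chosen after the values had been seen and no test was made of it.

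The position of each liver can be read from the median, over the 32 genes, of its difference from the WT mean. This was 0.35 in Gsr-null sample 4 and 0.24 in sample 5, and it was -0.34, -0.098, -0.17 and -0.46 in Gsr-null samples 1, 2, 3 and 6. The WT livers lay between -0.064 and 0.11. Livers above and livers below WT thus stood in the same genotype, and partly cancel in its mean. Over all tested probe sets the same median was -0.16 in Gsr-null sample 6, which also had the fewest probe sets above the log2 value of 4, and between -0.045 and 0.052 in the other 10 livers.

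Gsr-null sample 4 lay above every WT liver in 17 of the 32 genes (53.1%), against 21.4% of all tested probe sets, and sample 5 in 13 (40.6%), against 15.0%. Sample 1 lay below every WT liver in 21 genes (65.6%), against 22.7% of all tested probe sets, and sample 6 in 24 (75%), against 34.7%. Sample 6 was the lowest Gsr-null liver in 14 genes (43.8%), against 34.9%, or in 8 genes once arrays were centred on their medians. Below every WT liver, sample 3 had 14 genes (43.8%) against 25.7%, and sample 2 had 8 (25%) against 15.9%.

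**Figure D2:**
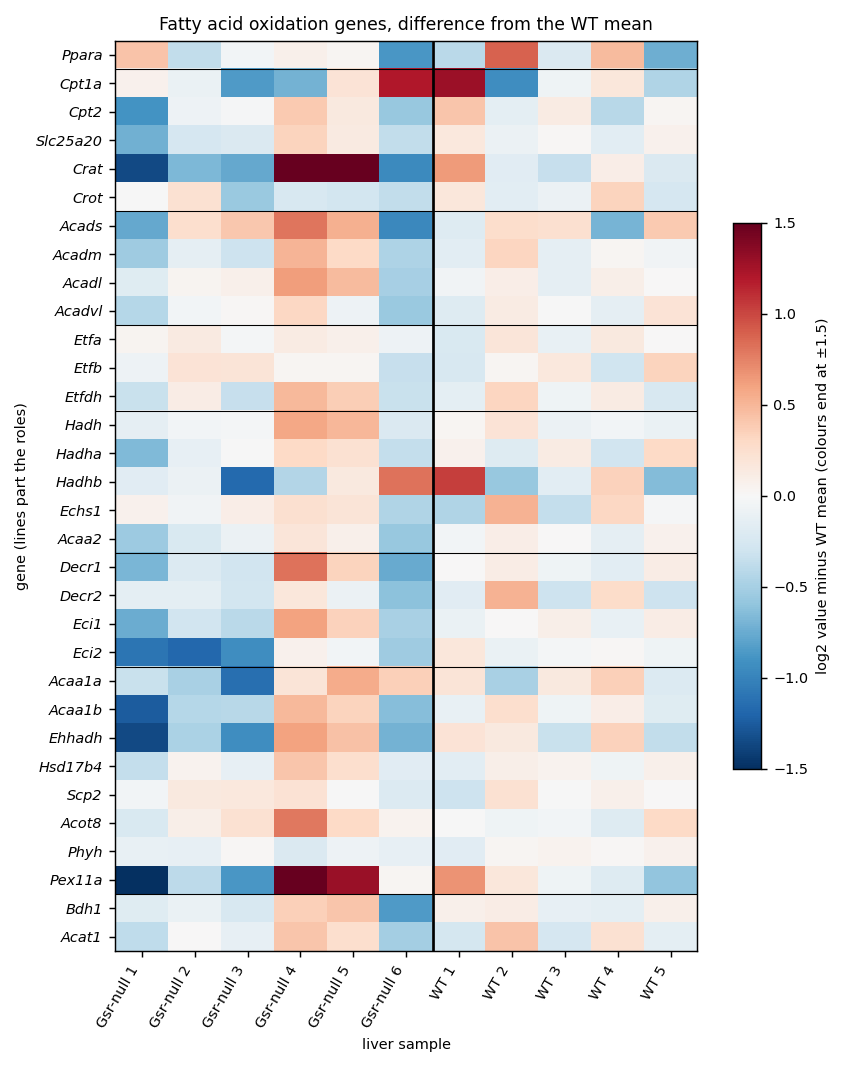
Log2 value minus the WT mean (colour, ending at ±1.5) for 32 genes (rows, parted by role) in 6 Gsr-null and 5 WT livers (columns, parted by the thick line). The columns of Gsr-null samples 4 and 5 are mostly red and those of samples 1 and 6 mostly blue, with Crat and Pex11a the strongest.

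**Figure D3:**
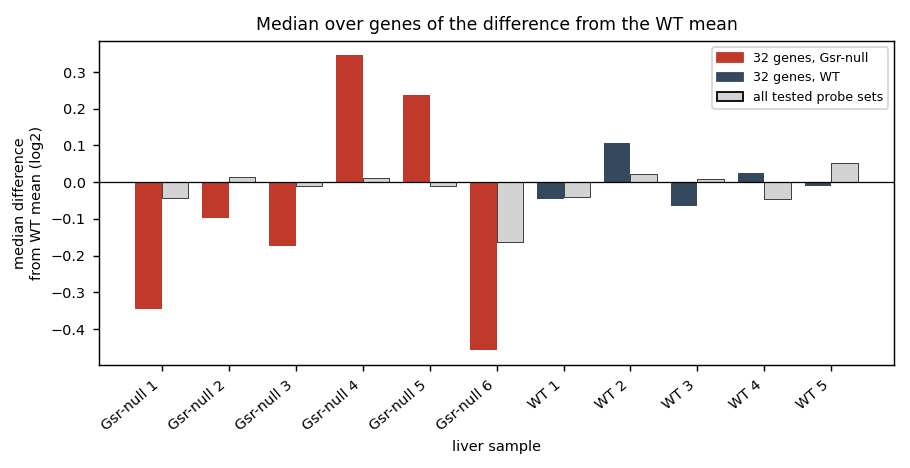
Median over 32 genes of the difference from the WT mean on the log2 scale (coloured bars, Gsr-null red and WT blue) beside the same over all tested probe sets (grey bars), for each liver. Gsr-null samples 4 and 5 reach 0.35 and 0.24 and sample 6 falls to -0.46, while the WT livers stay between -0.064 and 0.11.

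Values of array quality, cell type markers and the acute phase are set beside this pattern. RNA integrity was read from control probe sets of Gapdh and beta-actin, as their 3' minus 5' log2 difference. It was between 0.544 and 0.703 in Gsr-null samples 1, 2 and 3 and WT samples 2 and 4. The range was 1.20 to 1.75 in Gsr-null samples 4, 5 and 6 and WT samples 1, 3 and 5. Its mean did not differ detectably between genotypes, with a Gsr-null minus WT difference of -0.21 (two-sided exact permutation p = 0.448). Within the lower set the median difference of the 32 genes was -0.27, with 28 below 0, and within the higher set 0.12, with 12 below 0. The part of RNA integrity in the result was not tested.

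Within the lower set limma called 0 of the 32 genes, against 0.199% of all tested probe sets. At an unadjusted p under 0.05 there were 8 genes, all lower in Gsr-null livers (25%), against 5.77% of all tested probe sets in that direction, and 0 were higher, against 5.49%. Within the higher set limma called 0 of the 32 genes, against 0.157% of all tested probe sets. There 0 had an unadjusted p under 0.05, against 5.81% lower and 3.18% higher. Whether the genotype difference itself differs between the sets was not tested.

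Hepatocyte markers were present throughout: the log2 of the summed signal of 11 measured markers ran between 16.77 and 17.02 in Gsr-null and between 16.70 and 16.99 in WT livers. In bulk tissue, fewer hepatocytes and less RNA per hepatocyte cannot be told apart. No marker passed the filter on low values in 5 of the 10 marker lists, those of adipocytes, neutrophils, lymphocytes, cholangiocytes and muscle. Of the markers tested in the other 5 lists, 11 of hepatocytes, 6 each of macrophages and sinusoidal endothelium, 4 of stellate cells and 1 of erythroid cells, limma called 0, against 0.387% of all tested probe sets. The summed signal of 4 adipocyte markers was 8.50 and 8.09 in samples 4 and 5, with a lowest value of 3.87 among Gsr-null livers, against 3.88 to 4.18 in WT livers, and 3 of the 4 were under a log2 value of 4 in every liver. That of 7 stellate cell and fibroblast markers was 10.96 and 10.75 in samples 4 and 5, against 10.48 to 10.68 in WT livers. Gsr-null samples 1, 2 and 3 also lay above that WT range, so this was not particular to samples 4 and 5. The lowest Gsr-null value, 9.92, was that of sample 6. That of 4 neutrophil markers was 4.33 and 4.62 in samples 4 and 5, with a highest Gsr-null value of 7.62 in sample 1, against 4.27 to 4.65 in WT livers. For 7 macrophage markers samples 4 and 5 had 10.36 and 10.76, against 10.62 to 11.36 in WT livers. For 7 markers of sinusoidal endothelium they had 9.73 and 9.98, against 9.75 to 10.54. For 2 erythroid markers they had 9.67 and 9.18, against 8.59 to 9.14, with a highest Gsr-null value of 10.29. The part of these lists in the result was not tested. The acute phase gene Lcn2 was lowest in the Gsr-null livers where oxidation genes were highest. Lcn2 was 5.90 in sample 4 and 7.50 in sample 5, and 13.03, 8.25, 10.27 and 12.58 in samples 1, 2, 3 and 6, against 3.53 to 5.79 in WT livers. Its part in the result was not tested. The disrupted gene, Gsr, was 4.71 to 5.29 in Gsr-null and 6.62 to 6.93 in WT livers, a fall with a log2 difference of -1.83 (SE 0.123, limma adjusted p = 1.82e-05), so samples 4 and 5, at 4.94 and 5.09, match their label.

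Ppara was 10.32, 9.52, 9.85, 9.97, 9.92 and 9.02 in Gsr-null samples 1 to 6, against 9.48, 10.78, 9.67, 10.37 and 9.15 in WT samples 1 to 5. Among Gsr-null livers sample 1 was highest, samples 4 and 5 came next and sample 6 was lowest, and the values of the genotypes overlapped. The difference was -0.12 (SE 0.301, limma adjusted p = 0.990), at -0.68 within the lower and 0.20 within the higher 3' to 5' set. Whether the other genes follow Ppara from liver to liver was not tested.

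The carnitine shuttle carries acyl groups into mitochondria. The 5 measured genes of the shuttle and of other carnitine transferases had differences between -0.20 and -0.029, and 0 passed the test. Cpt1a, carnitine palmitoyltransferase of the outer membrane and the controlled step of entry, was 10.76, 10.59, 9.85, 9.99, 10.90 and 11.90 in Gsr-null livers, against 11.97, 9.76, 10.63, 10.86 and 10.24 in WT livers. Gsr-null sample 6 and WT sample 1 were highest, and the difference was -0.029 (SE 0.414, limma adjusted p = 0.999). This probe set, with an identifier ending in _x_at, can bind related transcripts. Another Cpt1a probe set, whose identifier ends in _at, gave 9.54, 9.87, 9.99, 10.38, 10.28 and 9.57 in Gsr-null livers, against 9.91, 10.05, 10.14, 9.78 and 10.12 in WT livers. On that probe set samples 4 and 5 were again the highest Gsr-null livers, and so the samples' order for Cpt1a depends on the probe set.

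Cpt2, the carnitine palmitoyltransferase of the inner membrane, was 8.77, 9.59, 9.65, 10.06, 9.81 and 9.10 in Gsr-null livers, against 10.08, 9.52, 9.78, 9.25 and 9.70 in WT livers. Slc25a20, the carrier that exchanges acylcarnitine for carnitine, was 10.08, 10.55, 10.58, 11.14, 10.94 and 10.43 in Gsr-null livers, against 10.96, 10.71, 10.82, 10.65 and 10.86 in WT livers. In both genes samples 4 and 5 were the highest Gsr-null livers and sample 1 the lowest, and neither passed the test (differences -0.17 and -0.18, SE 0.230 and 0.173, limma adjusted p = 0.965 and 0.933). Crot, the peroxisomal carnitine octanoyltransferase, had another order, at 11.91, 12.15, 11.37, 11.67, 11.64 and 11.55 in Gsr-null livers, against 12.08, 11.76, 11.83, 12.26 and 11.67 in WT livers. Its difference was -0.20 (SE 0.160, limma adjusted p = 0.879).

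Crat, carnitine acetyltransferase, which buffers acetyl-CoA, had, after Pex11a, the widest range of the 32 genes in Gsr-null livers, 3.12. It was 4.07, 4.76, 4.66, 7.19, 7.03 and 4.47 in Gsr-null livers, against 6.06, 5.26, 5.08, 5.52 and 5.21 in WT livers. Samples 4 and 5 lay above every WT liver and the other 4 Gsr-null livers below every WT liver, so that the means, 5.36 ± 1.37 (SD, n = 6) in Gsr-null and 5.42 ± 0.390 (SD, n = 5) in WT livers, were nearly equal. The difference was -0.061 (SE 0.557, limma adjusted p = 0.999), at -0.90 within the lower and 0.78 within the higher 3' to 5' set.

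The acyl-CoA dehydrogenases take the first step of each cycle, each for a range of chain lengths, and 0 of the 4 passed the test, with differences between -0.13 and 0.090. Acadvl, for very long chains, was 10.35, 10.73, 10.79, 11.09, 10.69 and 10.21 in Gsr-null livers, against 10.58, 10.89, 10.77, 10.64 and 10.98 in WT livers (difference -0.13, SE 0.159, limma adjusted p = 0.953). Acadl, for long chains, was 11.32 in Gsr-null sample 4, 11.17 in sample 5 and 10.20 to 10.78 in the other 4, against 10.56 to 10.80 in WT livers. Acadm was 11.89 in Gsr-null sample 4, 11.68 in sample 5 and 10.85 to 11.25 in the others, against 11.23 to 11.71 in WT livers. Acads, for short chains, was 8.97 and 8.69 in samples 4 and 5 and 7.20 to 8.56 in the others, against 7.46 to 8.55 in WT livers. In Acadl, Acadm and Acads samples 4 and 5 were the highest Gsr-null pair, and in Acadl and Acads both exceeded the whole WT range.

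The genes of the electron carriers showed little difference. Etfa and Etfb, the subunits of the electron transfer flavoprotein, and Etfdh, its dehydrogenase in the inner membrane, had differences between -0.0065 and 0.043. Etfa ranged from 11.49 to 11.71 in Gsr-null livers, against 11.34 to 11.76 in WT livers, and Etfb from 10.17 to 10.71, against 10.22 to 10.85. In neither gene were samples 4 and 5 the highest pair. Etfdh was 10.68 and 10.57 in samples 4 and 5 and 9.86 to 10.31 in the other Gsr-null livers, against 9.96 to 10.52 in WT livers, with samples 4 and 5 the highest Gsr-null pair.

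Of the 5 genes for the later mitochondrial steps 0 passed the test, and their differences ran between -0.20 and 0.11. Hadha, the subunit with hydratase and hydroxyacyl-CoA dehydrogenase activity, was 9.52, 10.05, 10.17, 10.47, 10.40 and 9.82 in Gsr-null livers, against 10.24, 9.99, 10.30, 9.89 and 10.47 in WT livers. Hadhb, the thiolase subunit from the other side of the promoter printed above, was 9.90, 10.15, 10.15, 10.68, 10.43 and 9.61 in Gsr-null livers on its probe set ending in _at, against 10.02, 10.47, 10.32, 10.17 and 10.43 in WT livers. On these probe sets samples 4 and 5 were the highest Gsr-null livers and samples 1 and 6 the lowest for both subunits. The representative Hadhb probe set, ending in _x_at, was 10.90, 10.99, 9.91, 10.64, 11.23 and 11.90 in Gsr-null livers. On it samples 4 and 5 were not the highest Gsr-null pair. It was highest in the same livers as the Cpt1a one, with 11.90 in Gsr-null sample 6 and 12.11 in WT sample 1.

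Hadh, the short-chain hydroxyacyl-CoA dehydrogenase, was 13.06 in Gsr-null sample 4, 12.96 in sample 5 and 12.25 to 12.44 in the other 4, against 12.37 to 12.68 in WT livers. Acaa2, the mitochondrial thiolase, was 11.34, 11.64, 11.79, 12.06, 11.95 and 11.31 in Gsr-null livers, against 11.84, 11.98, 11.89, 11.74 and 11.95 in WT livers (difference -0.20, SE 0.150, limma adjusted p = 0.867). Echs1, the short-chain hydratase, was 11.10 and 11.05 in samples 4 and 5 and 10.40 to 10.96 in the other Gsr-null livers, within the WT range of 10.41 to 11.38. On these representative probe sets samples 4 and 5 were thus the highest Gsr-null pair, but their distance from WT livers differed from gene to gene. For Acaa2 the order depends on the probe set. Another Acaa2 probe set was highest in Gsr-null samples 3 and 4, at 11.77 and 11.59, with 11.39 in sample 5. A further Acaa2 probe set was highest in samples 1 and 2, at 11.38 and 11.13, with 10.56 and 10.45 in samples 4 and 5.

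Eci2, an isomerase that moves the double bonds of unsaturated fatty acids, gave the smallest p of the 32 genes. It was 10.34, 10.25, 10.50, 11.49, 11.40 and 10.90 in Gsr-null livers, against 11.60, 11.33, 11.41, 11.46 and 11.37 in WT livers. Samples 1, 2, 3 and 6 lay below every WT liver, and samples 4 and 5 within the WT range. The mean was 10.81 ± 0.538 (SD, n = 6) in Gsr-null and 11.43 ± 0.106 (SD, n = 5) in WT livers, a difference of -0.62 (SE 0.228, limma adjusted p = 0.445, exact two-sided permutation p = 0.0433 without adjustment). Within the lower 3' to 5' set the difference was -1.03 and within the higher set -0.20.

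The other 3 genes for double bonds had differences between -0.18 and -0.13. Eci1, the mitochondrial isomerase, was 9.26, 9.72, 9.60, 10.62, 10.36 and 9.53 in Gsr-null livers, against 9.91, 10.02, 10.10, 9.90 and 10.12 in WT livers (difference -0.16, SE 0.222, limma adjusted p = 0.965). Each Gsr-null liver lay outside the WT range, 2 above and 4 below. Decr1, the mitochondrial dienoyl-CoA reductase, was 11.49 in Gsr-null sample 4, next highest in sample 5, and 9.98, 10.46, 10.38 and 9.91 in samples 1, 2, 3 and 6, against 10.67, 10.78, 10.60, 10.51 and 10.78 in WT livers, and again no Gsr-null liver lay within the WT range. Decr2, the peroxisomal reductase, was 9.32, 9.32, 9.18, 9.63, 9.37 and 8.85 in Gsr-null livers, against 9.29, 9.99, 9.15, 9.73 and 9.15 in WT livers (difference -0.18, SE 0.185, limma adjusted p = 0.937).

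**Figure D4:**
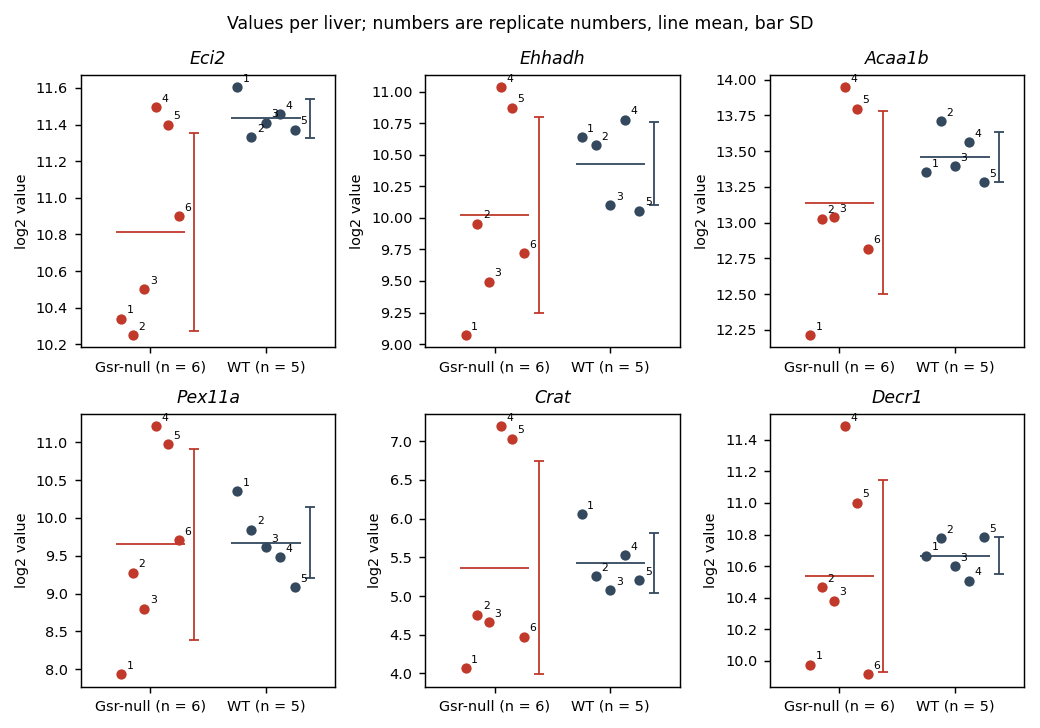
Log2 values (vertical axes) of Eci2, Ehhadh, Acaa1b, Pex11a, Crat and Decr1 in each liver, Gsr-null (n = 6) left and WT (n = 5) right, with replicate numbers, lines for means and bars for SD. In all 6 genes Gsr-null samples 4 and 5 are the highest Gsr-null livers, and sample 1 is among the lowest 2.

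Of the 8 genes for peroxisomal oxidation and peroxisome division 0 passed the test. Ehhadh, the peroxisomal bifunctional enzyme of straight-chain oxidation, was 9.07, 9.95, 9.49, 11.04, 10.87 and 9.72 in Gsr-null livers, against 10.64, 10.57, 10.10, 10.78 and 10.06 in WT livers. The whole WT range lay below samples 4 and 5 and above the other 4 Gsr-null livers. The mean was 10.02 ± 0.779 (SD, n = 6) in Gsr-null and 10.43 ± 0.330 (SD, n = 5) in WT livers, a difference of -0.40 (SE 0.334, limma adjusted p = 0.898), at -1.17 within the lower and 0.28 within the higher 3' to 5' set.

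Acaa1b, a peroxisomal thiolase, was 12.21, 13.03, 13.04, 13.95, 13.80 and 12.82 in Gsr-null livers, against 13.35, 13.71, 13.39, 13.56 and 13.28 in WT livers. It parted in the same way, with 2 Gsr-null livers above and 4 below the WT range (difference -0.32, SE 0.270, limma adjusted p = 0.904), and its difference was -0.88 within the lower and 0.18 within the higher 3' to 5' set. Acaa1a, the closely related thiolase, was measured by a probe set ending in _x_at that may bind both, at 8.78 to 10.47 in Gsr-null and 9.42 to 10.27 in WT livers.

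Pex11a had the widest range of the 32 genes, 3.28 in Gsr-null livers. It was 7.93, 9.28, 8.80, 11.21, 10.97 and 9.70 in Gsr-null livers, against 10.35, 9.84, 9.61, 9.48 and 9.08 in WT livers. Every WT liver was exceeded by samples 4 and 5, and samples 1 and 3 lay below every WT liver. The difference was -0.025 (SE 0.524, limma adjusted p = 0.999), at -0.99 within the lower and 0.95 within the higher 3' to 5' set. Its second probe set gave the same extremes, with 10.82 and 10.46 in samples 4 and 5 and 7.37 in sample 1, against 8.44 to 9.32 in WT livers.

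Acot8, a thioesterase that releases fatty acids from CoA, was 5.66, 5.98, 6.11, 6.68, 6.18 and 5.95 in Gsr-null livers, against 5.88, 5.83, 5.85, 5.70 and 6.19 in WT livers (difference 0.20, SE 0.168, limma adjusted p = 0.897). Phyh, which starts α-oxidation of the branched phytanic acid, was 13.18, 13.18, 13.31, 13.07, 13.22 and 13.18 in Gsr-null livers, against 13.13, 13.32, 13.35, 13.32 and 13.36 in WT livers (difference -0.10, SE 0.0938, limma adjusted p = 0.921). Sample 4 was the lowest Gsr-null liver for Phyh, unlike for most of the genes. Hsd17b4, the bifunctional enzyme for branched chains and bile acid precursors, was 10.87 to 11.64 in Gsr-null and 11.08 to 11.32 in WT livers, and Scp2, a thiolase and sterol carrier, 12.98 to 13.41 in Gsr-null and 12.88 to 13.41 in WT livers.

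Both ketone body genes had differences under 0.1 in size. Bdh1, the hydroxybutyrate dehydrogenase, was 10.89 in Gsr-null sample 4, 10.95 in sample 5, 10.30 to 10.44 in samples 1, 2 and 3 and 9.69 in sample 6, against 10.39 to 10.64 in WT livers. Acat1, the mitochondrial acetoacetyl-CoA thiolase, was 12.14 and 11.98 in samples 4 and 5 and 11.21 to 11.73 in the other Gsr-null livers, against 11.46 to 12.15 in WT livers. On these representative probe sets samples 4 and 5 were the highest Gsr-null pair in both, above the WT range only in Bdh1. The other Acat1 probe sets also had samples 4 and 5 as the highest Gsr-null pair. Another Bdh1 probe set did not, with 8.36 in sample 4, 8.16 in sample 1 and 7.77 in sample 5. These values lay within its WT range of 7.48 to 8.73.

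The genes had 18 further tested probe sets. The difference had the same sign as on the representative probe set in 15 and the opposite sign in 3, and 0 reached an unadjusted p under 0.05.

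Other genes of the pathway were taken from 8 lists, with 111 tested genes that are not among the 33. Limma called 0 of them in either direction, and 2 were higher and 3 lower at an unadjusted p under 0.05, against 3.27% and 5.08% of all tested probe sets. Their median difference was -0.067. Gsr-null samples 4 and 5 were the highest Gsr-null pair in 57 (51.4%), against 18.8% of all tested probe sets. By list this held for 19 of 25 PPAR-alpha targets, 8 of 10 peroxisome assembly genes and 3 of 6 ketone body genes. It also held for 6 of 10 genes of carnitine supply and acyl-CoA activation and 11 of 22 of branched and odd chain breakdown. The counts were 5 of 15 further peroxisomal genes, 4 of 17 PPAR-alpha partners and regulators, and 2 of 7 omega oxidation genes. The pattern was picked after the values were seen, and the lists were chosen with earlier results of these data known. These counts are therefore a description and not independent support for the pattern, and no test was made of them.

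The regulators gave the smallest p values of these lists. Ppargc1b, a coactivator of mitochondrial genes, was 5.28, 4.91, 3.95, 5.08, 4.97 and 5.41 in Gsr-null livers, against 5.37, 6.03, 6.21, 5.36 and 5.63 in WT livers (difference -0.79, SE 0.255, limma adjusted p = 0.343). Here samples 4 and 5 stayed below every WT liver, as did 3 of the other 4. Lpin2, a phosphatidate phosphatase, was 8.40, 8.26, 8.43, 9.84, 9.90 and 9.17 in Gsr-null livers, against 9.84, 9.96, 10.05, 9.59 and 10.05 in WT livers (difference -0.90, SE 0.308, limma adjusted p = 0.389). For Lpin2 samples 4 and 5 lay within the WT range and the other Gsr-null livers below it.

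Among PPAR-alpha targets Vnn1, the pantetheinase vanin-1, parted most widely, at 10.55 and 9.60 in Gsr-null samples 4 and 5 and 3.15 to 4.26 in the other 4, against 8.84 to 10.05 in WT livers (difference -3.43, SE 1.27, limma adjusted p = 0.448). Vnn1 and Acot3, a peroxisomal thioesterase, were called lower by limma within the lower 3' to 5' set alone (differences -5.80 and -2.94, adjusted p = 0.00553 and 0.0274). They were 2 of the 111 tested genes of the lists, against 0.199% of all tested probe sets called there in either direction. That set holds 3 Gsr-null and 2 WT livers and leaves out Gsr-null samples 4 and 5. In those 2 livers Acot3 was 7.43 and 7.64, against 2.41 to 6.15 in all WT livers. Within the set Acot3 was 1.93, 2.56 and 2.76 in Gsr-null samples 1, 2 and 3, under the log2 value of 4. There WT samples 2 and 4 had 5.38 and 5.34. WT samples 3 and 5, outside the set, had 3.09 and 2.41, so its call depends on which WT livers the set holds. Slc25a47, a mitochondrial carrier of liver, was 12.25 and 11.78 in samples 4 and 5 and 9.80 to 11.36 in the other Gsr-null livers, against 11.59 to 12.29 in WT livers (difference -0.75, SE 0.367, limma adjusted p = 0.638). In these targets samples 4 and 5 were like WT livers or above them.

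A few further genes are named here after their values were seen. Cidea and Cidec, proteins of lipid droplet fusion, were 8.74 and 8.46 in Gsr-null sample 4 and 8.04 and 8.04 in sample 5. In the other 4 Gsr-null livers Cidea was 2.19 to 2.51 and Cidec 2.53 to 2.87, and in WT livers Cidea was 2.10 to 3.55 and Cidec 2.46 to 3.17. Neither passed the filter on low values, since only these 2 livers exceeded 4. Cidec also marks adipocytes. The adipocyte markers Adipoq, Lep and Retn were between 1.16 and 2.44 in all 11 livers, and samples 4 and 5 lay at 1.34 to 2.11. Cd36, a fatty acid receptor, was 10.50 in sample 4, 10.26 in sample 5 and 6.64 to 7.97 in the other Gsr-null livers, against 6.76 to 9.06 in WT livers. Aldh3a2, the fatty aldehyde dehydrogenase, was 10.83 and 10.47 in samples 4 and 5 and 6.09 to 8.66 in the other Gsr-null livers, against 8.81 to 10.10 in WT livers.

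**Figure D5:**
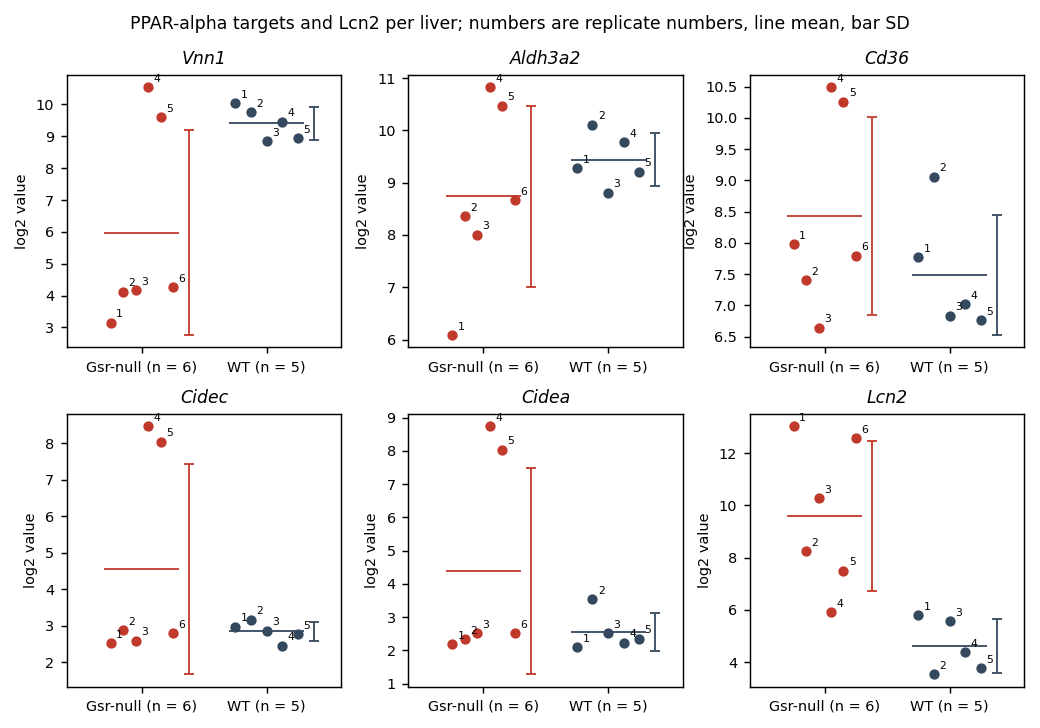
Log2 values (vertical axes) of Vnn1, Aldh3a2, Cd36, Cidec, Cidea and the acute phase gene Lcn2 in each liver, Gsr-null (n = 6) left and WT (n = 5) right, with replicate numbers, lines for means and bars for SD. Gsr-null samples 4 and 5 are the highest Gsr-null livers in the first 5 genes and the lowest in Lcn2.

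In the other lists the genes with the smallest p were as follows. Cyp4a12a, an omega hydroxylase, differed by 0.57 (limma adjusted p = 0.501) and Cyp4f13 of the same pathway by -0.29 (limma adjusted p = 0.797). Acox2, the oxidase for branched chains and bile acid precursors, differed by 0.38 (limma adjusted p = 0.528) and Gnpat, of ether lipid synthesis, by -0.28 (limma adjusted p = 0.662). Slc27a4, a fatty acid transport protein, differed by 0.44 and Tmlhe, of carnitine synthesis, by 0.45 (limma adjusted p = 0.856 and 0.898). Pex6 and Pex26, which recycle the peroxisomal import receptor, differed by -0.26 and -0.37 (limma adjusted p = 0.685 and 0.824). Slc16a1, a monocarboxylate transporter, differed by 0.44 and Oxct1, which uses ketone bodies, by -0.29 (limma adjusted p = 0.795 and 0.867). Bckdhb and Acadsb, of branched-chain amino acid breakdown, differed by 0.29 and 0.26 (limma adjusted p = 0.783 and 0.867). None of these 12 genes passed the test.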

How the data were processed

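Liver RNA of 6 Gsr-null and 5 WT mice was measured on Affymetrix mouse arrays, 1 per mouse, and the labels call the samples biological replicates. Per the labels' protocols, the RiboPure kit gave total RNA, and 1 µg of it was used for biotin labelling. The deposited values, 1 per probe set and array, are on a scale read as log2 from their range; per the submitters' processing notes, the authors made them with GCRMA (version not given in the sources used here). The table held 22690 probe sets, 64 of them controls.

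The 9560 probe sets (42.3%) that exceeded log2 4 in 5 or more samples were tested with limma 3.58.1 in R 4.3.3, with Benjamini-Hochberg adjustment over all 9560 and a threshold of 0.05. The number of arrays limits precision. The fit was tested on simulated data. Single values were also tested by exact permutation over the 462 splits. The members and lists were chosen with earlier results of these data known. Per-sample values are given for the 12 members with the smallest p, for Ppara and Cpt1a, and, chosen after the values were seen, for Crat, Pex11a, Decr1, Hadha and Hadhb. From each list of other genes the 2 with the smallest p are named, and Vnn1. Alternatives covered the filter, scaling, variance model, threshold, probe set, replicate block, 3' to 5' set and the omission of samples. Same-numbered samples were not paired. Figures were drawn with matplotlib 3.10.9.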

Additional observations from a re-analysis of the deposited data

Results flagged for a closer look

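Of 100 gene and genotype groups examined, 3 held a single distant sample, and chance alone would give about 5. For Phyh, WT sample 1 had 13.13, while the other WT livers had 13.32 to 13.36. For Cyp4f13, WT sample 5 had 6.36, while the other WT livers had 5.75 to 5.91. Ppargc1b was 3.95 in Gsr-null sample 3, against 4.91 to 5.41 in the other Gsr-null livers. The divergence of Gsr-null samples 4 and 5 cannot be found by this comparison, since it looks for a single distant sample.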

How the results depend on the processing

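Under every alternative that gave an adjusted p, 0 of the 32 genes had one under 0.05. The smallest was 0.139, for Eci2 by limma within the lower 3' to 5' set. Of 862 values over all alternatives, with exact permutation included, 108 values, of 24 genes, changed sign and 8 genes kept theirs. Causes were not tested, except that fewer samples enter where samples are left out. The genes at an unadjusted p under 0.05 in the lower direction, 1 in all, became 8 within the lower 3' to 5' set, 0 within the higher set and 0 without Gsr-null samples 2 and 3. The called genes of the other lists, 0 lower, became 2 of 111 within the lower set, against 0.199% of all tested probe sets in either direction. In that set Gsr was -1.71 (limma adjusted p = 0.0862). The genes lowest in Gsr-null sample 6 among Gsr-null livers, 14, became 8 with arrays centred on their medians; samples 4 and 5 stayed the highest pair in 22 genes under that scaling and under quantile normalization, and in 22 of 30 on probe sets ending in _at with no other letter. Those 3 alternatives were chosen after the data were seen. Leaving out 1 sample moved the median difference of the 32 genes between -0.19 without Gsr-null sample 4 and -0.022 without Gsr-null sample 1.

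Of the genes whose differences are printed, those with a changed sign were Cpt1a (0.0071) and Pex11a (0.011) with arrays centred; Ppara (0.026), Crat (0.29) and Pex11a (0.23) with array weights; and Crat (0.038), Cpt1a (0.029) and Pex11a (0.085) with the 3' to 5' set as a block. Within the lower set they were Cpt1a (0.090), Oxct1 (0.066) and Bckdhb (-0.12), and within the higher set Ehhadh (0.28), Acaa1b (0.18), Decr2 (0.086), Eci1 (0.12), Ppara (0.20), Crat (0.78) and Pex11a (0.95). Without Gsr-null samples 2 and 3 they were Crat (0.27), Cpt1a (0.19) and Pex11a (0.28), and with the mean of a gene's probe sets Cpt1a (0.064) and Pex11a (0.049). Leaving out each sample gave -0.31 to 0.098 for Ppara, -0.27 to 0.29 for Cpt1a, -0.43 to 0.20 for Crat and -0.34 to 0.32 for Pex11a.

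Replicate numbers gave no sign of pairing: the correlation between deviations of samples that share a number was -0.24 to 0.036, and for 0 of 5 WT samples was the best match the Gsr-null sample of that number. With the replicate block over numbers 1 to 5, 0 of the 32 genes were called, Ppara was 0.026 and Crat 0.12, and 3 of all tested probe sets were called in place of 37.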

Other observations

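Among the regulator and ketone lists, where Gsr-null samples 4 and 5 were the highest Gsr-null pair in 4 of 17 and 3 of 6 genes, 3 genes with that pattern are named after their values were seen. Acacb, the acetyl-CoA carboxylase at mitochondria whose product blocks carnitine palmitoyltransferase, was 7.42 in Gsr-null sample 4, 7.20 in sample 5 and 3.94 to 5.06 in the other Gsr-null livers, against 4.04 to 5.47 in WT livers. Pparg, the receptor of fat storage, was 6.89 and 6.68 in samples 4 and 5 and 3.24 to 4.19 in the other Gsr-null livers, against 4.05 to 6.21 in WT livers. Aacs, which returns ketone bodies to lipid synthesis, was 7.92 and 7.74 in samples 4 and 5 and 3.91 to 5.29 in the other Gsr-null livers, against 5.38 to 7.14 in WT livers.

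Some probe sets of the oxidation genes had an order of their own, with Gsr-null sample 6 and WT sample 1 at the top. Another probe set of Cpt1a was 10.27 in Gsr-null sample 6 and 7.63 to 8.58 in the other Gsr-null livers, against 9.80 in WT sample 1 and 7.32 to 8.28 in the other WT livers. Another probe set of Hadh was 8.44 in Gsr-null sample 6 and 5.46 to 5.97 in the others, against 6.30 in WT sample 1 and 5.20 to 5.54 in the other WT livers. These 2 livers also had the fewest probe sets above the log2 value of 4 in their genotype, 9094 in Gsr-null sample 6, against 9459 to 9551 in the other Gsr-null livers, and 9377 in WT sample 1, against 9398 to 9603 in the other WT livers. The part of array quality in these values was not tested.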
